A study of Mus musculus with 6 samples.

Results

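The genes described are the protein-coding mouse genes whose symbol starts with Gpr and a digit or with Adgr, leaving out *Adgre1*, which encodes the macrophage marker F4/80. Of the 47729 genes counted, 99 met this rule, 73 with a Gpr symbol (orphan-named receptors) and 26 with an Adgr symbol (adhesion receptors). They were measured by RNA-seq in bone marrow-derived macrophages (BMMs) from wild type (WT) mice and from mice lacking Aif1 (Aif1-/-), with 3 libraries of each genotype. All libraries came from C57BL/6J mice aged 8 weeks, male by the methods text. Their macrophages were immortalized with SV40 large T antigen in both genotypes and grown with 120 ng/ml CSF-1 and 10% serum, at passages 3 to 5. The libraries of a genotype are described as independent animals, but whether each is a separately immortalized line is not stated, so p-values measure the spread between these 6 cultures. Fold changes are Aif1-/- minus WT on the log2 scale, and normalized counts are read counts brought to the mean library. Positions are in the GRCm38 build and span the whole gene.

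G protein-coupled receptors cross the membrane repeatedly and pass signals from outside ligands to heterotrimeric G proteins inside the cell. An orphan receptor is one whose natural ligand was unknown when it was named, and several genes that keep a Gpr symbol have since been matched to lipids, sterols, metabolites or protons. Adhesion receptors carry a long extracellular part, bind matrix or neighbouring cells, and most cut themselves at a conserved site next to the membrane. In macrophages receptors of both families take part in migration, sensing of tissue acidity and recognition of damaged cells.

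Library depth was 17707986 to 29314253 gene counts. Levels in CPM are counts scaled to a common library total, so that libraries of different depth can be compared. *Aif1* had raw counts of 220, 157 and 239 in WT and of 4, 4 and 1 in Aif1-/- BMMs, which matches the genotype labels. All 10 macrophage markers on a fixed list were tested, and 7 were higher and 1 lower in Aif1-/- BMMs. Their summed level was 3758 to 4609 CPM in WT and 5487 to 5578 in Aif1-/- libraries. Of 7 megakaryocyte and platelet markers, 5 were tested and 3 were higher, with a summed level of 41.4 to 46.4 CPM in WT and 86.9 to 91.4 in Aif1-/- libraries. Those higher were *Pf4*, *Treml1* and *Ppbp*, while *Gp1ba* (24 to 73 raw counts in a library) and *Itga2b* (5 to 20) did not pass and *Gp9* had 2 counts over all libraries. Of 5 endothelial markers 3 were tested and *Kdr* was lower (log2 fold change -0.49). *Vwf* (means of 6678 against 6179 normalized counts) and *Cdh5* (9 to 45 raw counts in a library) did not pass. *Pecam1* (2 to 16) and *Tek* (0 to 5) had too few counts to test. The summed level, most of it from *Vwf* and *Kdr*, was 307.5 to 362.8 CPM in WT and 286.6 to 298.3 in Aif1-/- libraries. No granulocyte marker changed (1 of 10 tested, and *Ly6g*, *Mpo* and *Elane* had 0 counts), nor did any dendritic cell marker (2 of 6 tested), while no B and T cell (10 listed), mast cell (6) or fibroblast marker (7) had enough counts to test. The part of these markers in the receptor results was not tested. In such bulk libraries fewer cells with a transcript cannot be told apart from less transcript per cell.

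Most of the receptor genes were silent or nearly silent in BMMs. Of the 99 genes, 30 had 0 counts in all 6 libraries, which allows a level of up to 0.0212 CPM (3 counts over the gene counts of all libraries, counting error only). A further 31 had 1 to 35 counts in all, with at most 11 in a library, and were not tested. The remaining 38 passed edgeR's filter on low counts, 33 orphan-named and 5 adhesion receptors. Genes at 0 included *Gpr15*, a receptor of lymphocyte homing, *Gpr39*, a zinc-sensing receptor, *Gpr6* and *Gpr12*, which raise cAMP without a known ligand, and *Adgrl4*, an adhesion receptor of endothelium. All 8 members of the group of intracellular and atypical membrane proteins were tested, and none of the 8 peptide and ion receptors was. *Gpr132*, a proton- and lipid-responsive receptor described in macrophages, had 9 counts over all libraries, *Gpr55*, a lysophospholipid receptor, had 2, and *Adgrg1*, an adhesion receptor of cytotoxic lymphocytes and neural progenitors, had 13. Some untested genes, picked here after their values were seen, carried most of their counts in 1 genotype: *Gpr31b*, the mouse relative of a receptor for a hydroxylated fatty acid, had 0, 5 and 0 counts in WT and 8, 10 and 4 in Aif1-/- BMMs, and *Adgrb1*, a phagocytic receptor for phosphatidylserine also called BAI1, had 7, 1 and 4 counts in WT and none in Aif1-/- BMMs. With the filter removed 69 of the 99 genes could be tested, and none of the 31 low genes passed.

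**Figure D1:**
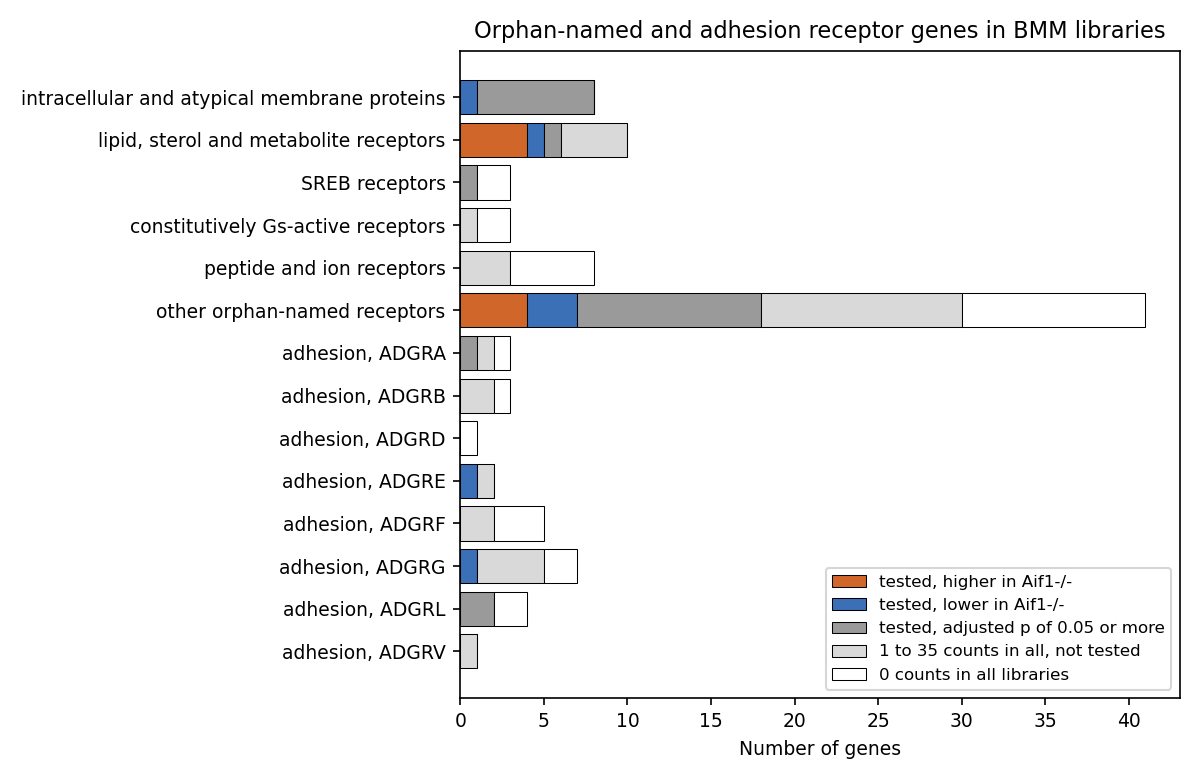
Number of receptor genes (horizontal axis) in each group (vertical axis), divided by whether a gene had 0 counts, 1 to 35 counts over the 6 libraries, or enough to be tested, and for tested genes by the call between WT and Aif1-/- BMMs. Proton sensors are counted with the other orphan-named receptors. All 8 intracellular and atypical proteins were tested, against 5 of 26 adhesion receptors.

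Per length, *Gpr137b* led the order in both genotypes. Levels are given here in CPM per kilobase of exon. *Gpr137b*, which encodes a lysosomal membrane protein, stood at 71.6 ± 2.36 (SD, n = 3) in WT and 67.9 ± 1.48 in Aif1-/- BMMs, and alone held 33.8% to 34.9% of all counts of the 99 genes in each library. *Gpr108*, a Golgi protein, followed in WT at 20.5 ± 2.06 and *Gpr65*, a proton sensor, at 17.8 ± 1.54, levels whose ranges over libraries overlapped. In Aif1-/- BMMs this order was turned, with *Gpr65* at 24.6 ± 1.18 and *Gpr108* at 18.8 ± 0.461. Next in WT came *Gpr162* at 12.6 ± 1.52, *Gpr107* at 10.0 ± 0.627, *Gpr176* at 9.65 ± 1.49, *Gpr89* at 8.40 ± 0.596 and *Gpr180* at 7.03 ± 0.545. In that run the WT libraries of *Gpr107* overlapped those of *Gpr176*, and those of *Gpr176* overlapped those of *Gpr89*. In every WT library *Gpr162* lay above *Gpr107*, and *Gpr89* above *Gpr180*. In Aif1-/- BMMs the next places were held by *Gpr84* at 14.9 ± 0.282 and *Gpr183* at 13.9 ± 0.199, which ranked 9 and 10 in WT at 6.51 ± 1.01 and 6.12 ± 0.119. The largest change of rank among the 38 was that of *Gpr141*, from 31 in WT (0.343 ± 0.0629) to 10 in Aif1-/- BMMs (5.83 ± 0.154). *Gpr137b* has a transcribed pseudogene, *Gpr137b-ps*, with 2604 to 4566 raw counts in a library, so part of its reads could belong to the copy. A level of 1 or more in the mean of either genotype was reached by 25 of the 99 genes.

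**Figure D2:**
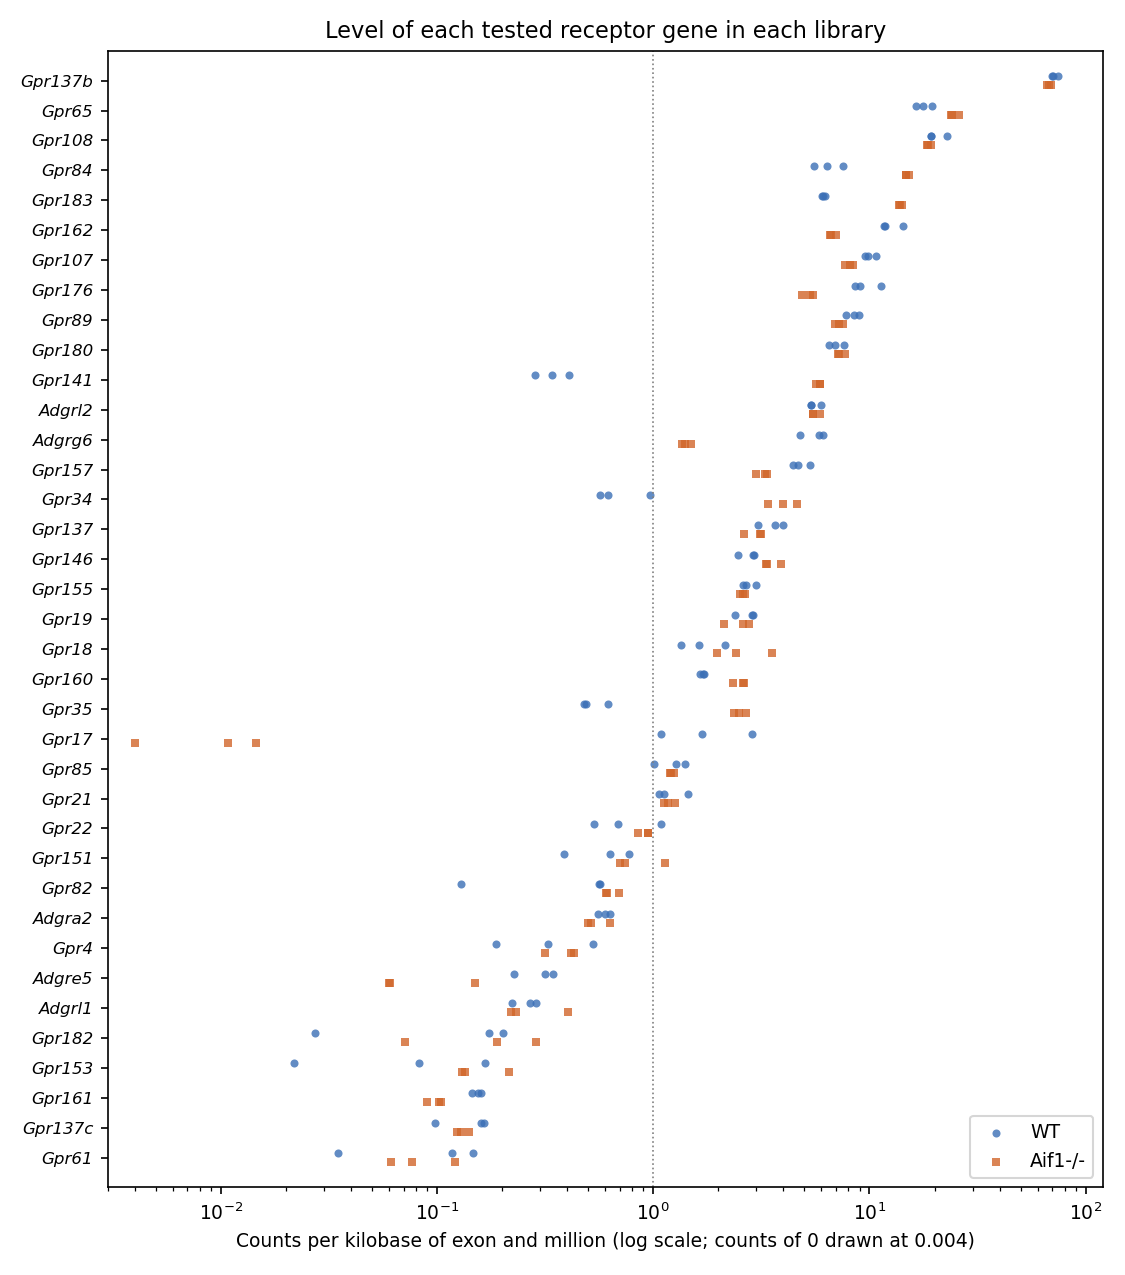
Level of tested genes (vertical axis, ordered by the higher genotype mean) in CPM per kilobase of exon (horizontal axis, log scale), with a point for each of 3 WT (circles) and 3 Aif1-/- (squares) libraries and a dotted line at 1. *Gpr137b* lies near 70 in both genotypes, and *Gpr141*, *Gpr34* and *Gpr35* lie below 1 in WT and above 1 in Aif1-/- libraries.

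Of the 38 genes tested, 15 differed between genotypes, 8 higher and 7 lower in Aif1-/- BMMs (edgeR quasi-likelihood test, adjusted p under 0.05 over all 17406 genes tested). Over all genes tested 18.6% were called, 8.04% higher and 10.5% lower, and over the protein-coding genes 23.9%, against 39.5% of the receptor genes. The median log2 fold change of the 38 genes was -0.00393 and the median of its size without sign 0.46, against -0.00354 and 0.20 for all genes tested. For 8 of the 15 genes the log2 fold change was 1 or larger in size, which 6.31% of all tested genes passed together with the threshold. In 20 of the 38 genes every library of one genotype lay above every library of the other, as in 35.7% of all genes tested. The direction differed by group: 4 of 6 tested lipid, sterol and metabolite receptors were higher and 1 lower. Of 8 intracellular and atypical proteins 1 was lower, and 2 of 5 adhesion receptors were lower. These counts are small, and no difference between the groups was tested. Counts summed over the 99 genes made up 1022 to 1067 CPM in WT and 972 to 1008 in Aif1-/- libraries.

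**Figure D3:**
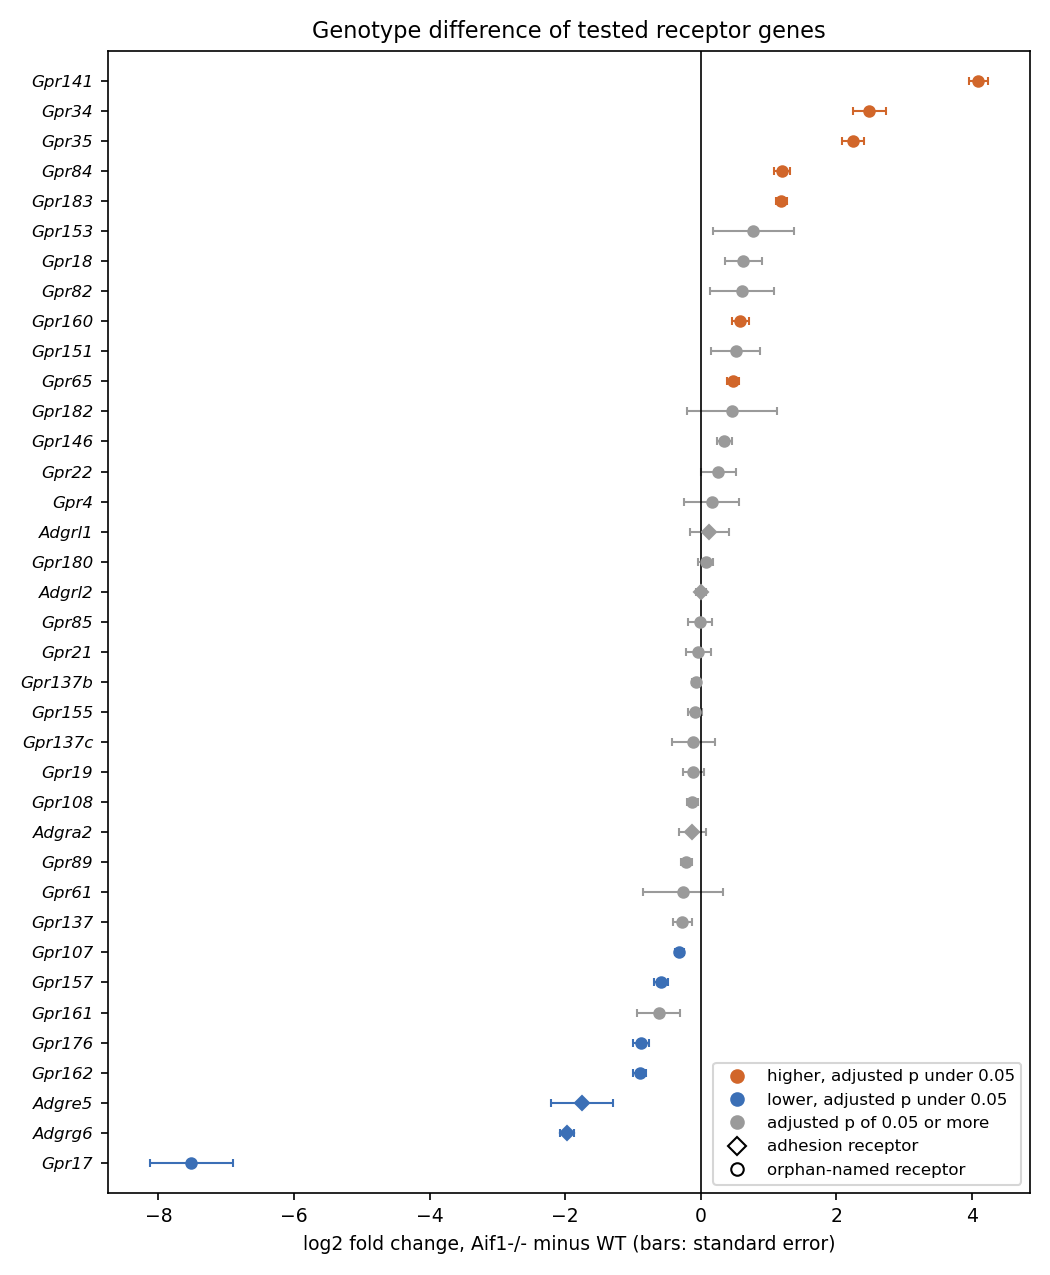
The log2 fold change of tested genes (horizontal axis, Aif1-/- minus WT, bars for the standard error), ordered on the vertical axis, with diamonds for adhesion and circles for orphan-named receptors and colour for the call at an adjusted p of 0.05. *Gpr141* lies farthest to the right at 4.09 and *Gpr17* farthest to the left at -7.51.

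Receptors for lipids and metabolites made up the largest group of rises. *Gpr84* (chr15:103308235-103310612, minus strand), a receptor for medium-chain fatty acids that inflammatory stimuli induce in macrophages, had normalized counts of 258, 226 and 307 in WT and of 599, 599 and 619 in Aif1-/- BMMs. The genotypes did not overlap, and the WT libraries spread more widely than the Aif1-/- libraries. The log2 fold change was 1.20 (standard error 0.12, adjusted p = 6.83e-05 by edgeR). *Gpr183* (chr14:121952551-121965195, minus strand), also called EBI2, guides immune cells along gradients of oxysterols. Its normalized counts were 407, 423 and 415 in WT and 943, 960 and 934 in Aif1-/- BMMs, with little spread in either genotype (log2 fold change 1.19, standard error 0.08, adjusted p = 3.28e-06 by edgeR). *Ch25h*, the hydroxylase that starts synthesis of the GPR183 ligand, rose as well, from 209 ± 47.8 (SD, n = 3) to 1123 ± 58.2 (log2 fold change 2.42 and adjusted p = 1.35e-06 by edgeR). *Cyp7b1* and *Hsd3b7*, enzymes that act on oxysterols after it, had 0 counts in all 6 libraries.

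*Gpr35* (chr1:92950865-92986391, plus strand), for which kynurenic acid and other metabolites have been proposed as ligands, had normalized counts of 54.3, 70.4 and 55.7 in WT and of 268, 284 and 304 in Aif1-/- BMMs. All Aif1-/- libraries lay far above all WT libraries, and the log2 fold change was 2.24 (standard error 0.16, adjusted p = 5.19e-06 by edgeR). *Gpr34* (chrX:13632089-13640858, plus strand), a lysophosphatidylserine receptor typical of microglia and other tissue macrophages, had 47.3, 28.0 and 30.4 in WT and 195, 228 and 166 in Aif1-/- BMMs (log2 fold change 2.49, standard error 0.24, adjusted p = 3.98e-05 by edgeR). *Gpr18*, a receptor with proposed lipid ligands, had 57.3, 75.5 and 47.3 in WT and 84.8, 69.3 and 125 in Aif1-/- BMMs, and the genotypes overlapped (log2 fold change 0.63, standard error 0.27, adjusted p = 0.16 by edgeR).

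**Figure D4:**
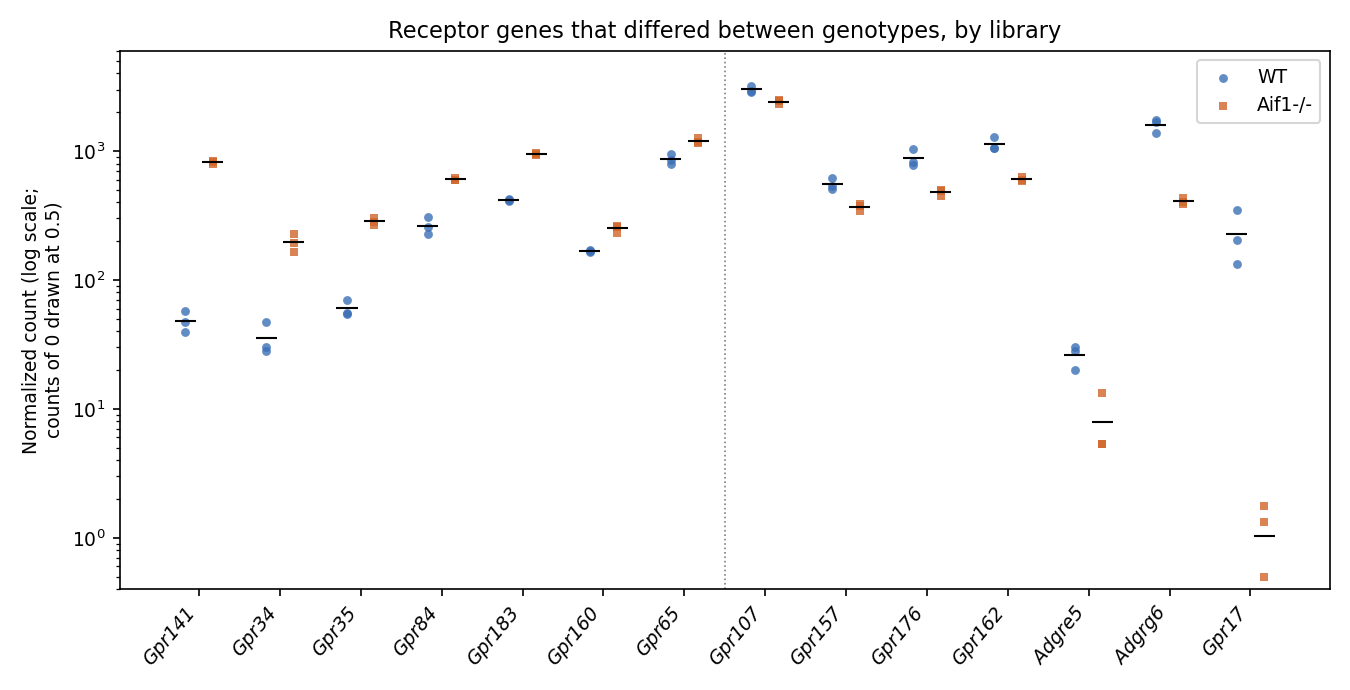
Normalized counts (vertical axis, log scale) of the genes described that differed between genotypes (horizontal axis), with a point for each WT (circles) and Aif1-/- (squares) library and a line at each mean. Genes left of the dotted line were higher and those right of it lower in Aif1-/- BMMs. No gene has overlapping genotypes, and *Gpr17* shows the widest gap (mean of 229 against 1.03).

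Proton sensors respond to acid outside the cell. *Gpr65* (chr12:98268635-98276644, plus strand), which couples acidity to cAMP in leukocytes, had 944, 858 and 795 normalized counts in WT and 1263, 1168 and 1160 in Aif1-/- BMMs. The rise was small but larger than the spread of the libraries (log2 fold change 0.47, standard error 0.09, adjusted p = 0.00323 by edgeR). *Gpr4*, a related sensor, had 15 to 42 raw counts in a library and overlapping genotypes (log2 fold change 0.16, standard error 0.41).

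Among orphans with no agreed ligand, *Gpr141* (chr13:19749682-19824257, minus strand) showed the largest rise of the 38 genes. Its raw counts were 57, 56 and 47 in WT and 943, 623 and 603 in Aif1-/- BMMs, and its normalized counts 57.3, 47.5 and 39.7 against 833, 830 and 794. The log2 fold change was 4.09 (standard error 0.14, adjusted p = 3.15e-08 by edgeR), or 17.1-fold. The neighbouring *Gpr141b*, annotated as non-coding and thus no member, had 0 counts in each WT library and 6, 2 and 3 in the Aif1-/- libraries. *Gpr160* (chr3:30855950-30897192, plus strand), another orphan, had 171, 168 and 164 normalized counts in WT and 261, 233 and 259 in Aif1-/- BMMs (log2 fold change 0.58, standard error 0.13, adjusted p = 0.00817 by edgeR). Without Aif1-/- replicate 1 or 3 its adjusted p was 0.0601 and 0.0512 by edgeR.

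A trio of orphans fell. *Gpr162* (chr6:124858444-124863983, minus strand) had 1061, 1049 and 1292 normalized counts in WT and 590, 597 and 635 in Aif1-/- BMMs (log2 fold change -0.90, standard error 0.10, adjusted p = 0.000111 by edgeR). *Gpr176* (chr2:118277110-118373419, minus strand), known as a receptor of the brain's circadian clock, had 825, 786 and 1039 against 445, 502 and 489 (log2 fold change -0.89, standard error 0.12, adjusted p = 0.000439 by edgeR). *Gpr157* (chr4:150087365-150105927, plus strand) had 510, 540 and 613 against 377, 342 and 386 (log2 fold change -0.59, standard error 0.11, adjusted p = 0.00327 by edgeR). In each of them WT replicate 3 was the highest library and no Aif1-/- library reached the WT range. *Gpr146*, a receptor linked to plasma cholesterol, had 441 ± 40.5 (SD, n = 3) in WT and 560 ± 50.6 in Aif1-/- BMMs, just short of the threshold (adjusted p = 0.0565 by edgeR). It passed as higher in several other fits, among them those without WT replicate 2 or 3.

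*Gpr17*, a receptor related to purine and leukotriene receptors and known from oligodendrocyte precursors, was nearly lost. It had 204, 412 and 157 raw counts in WT and 2, 0 and 1 in Aif1-/- BMMs, with WT replicate 2 well above the other WT libraries. The log2 fold change was -7.51 (standard error 0.62, adjusted p = 1.29e-05 by edgeR), with a counting interval of the log2 ratio from -9.94 to -6.11. That interval pools the reads of each genotype and covers counting error only, not the spread between libraries. *Gpr17* lies inside *Lims2*, which encodes an adhesion adaptor and is read from the other strand, and 188 bases of their exons overlap (3.6% of those of *Gpr17*). *Lims2* had 968, 920 and 1177 raw counts in WT and 4, 1 and 1 in Aif1-/- BMMs (log2 fold change -8.58, adjusted p = 1.30e-08 by edgeR). The counts may not separate strands, so reads of *Gpr17* cannot be told apart from unspliced reads of *Lims2*. In WT the order of the libraries differed between the genes: in replicate 2, the library with the most reads matched to no gene (40.4%), *Gpr17* was highest and *Lims2* was lowest.

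Other tested receptors lie inside a larger gene too, and of these *Gpr34* and *Gpr183* passed the test while their hosts did not. *Gpr34* and *Gpr82*, an orphan next to it, lie within *Cask* on the X chromosome, on the opposite strand. *Gpr34* rose, while *Gpr82* had 33.2, 33.1 and 7.60 normalized counts in WT and 35.3, 36.0 and 40.8 in Aif1-/- BMMs (log2 fold change 0.61, standard error 0.47, adjusted p = 0.454 by edgeR), and the log2 fold change of *Cask* was 0.10 (standard error 0.08). *Gpr183* and *Gpr18* lie within *Ubac2* on chromosome 14, again on the opposite strand, and the log2 fold change of *Ubac2* was -0.07 (standard error 0.13). *Gpr18*, described above, did not pass. *Gpr146* and *Gpr22*, an orphan, lie on the opposite strand within *3110082I17Rik* and *Cog5*: *Gpr22* had a log2 fold change of 0.26 and did not pass, and *Cog5* rose by 0.39, while *3110082I17Rik* had 0.18 beside the 0.34 of *Gpr146*, and neither passed. *Gpr21*, an orphan within *Rabgap1* on the same strand and *Strbp* on the other, had -0.04 and did not pass, whereas *Rabgap1* was lower (-0.23) and *Strbp* higher (0.74). The 2 pairs were the only tested members within 100 kb of each other.

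**Figure D5:**
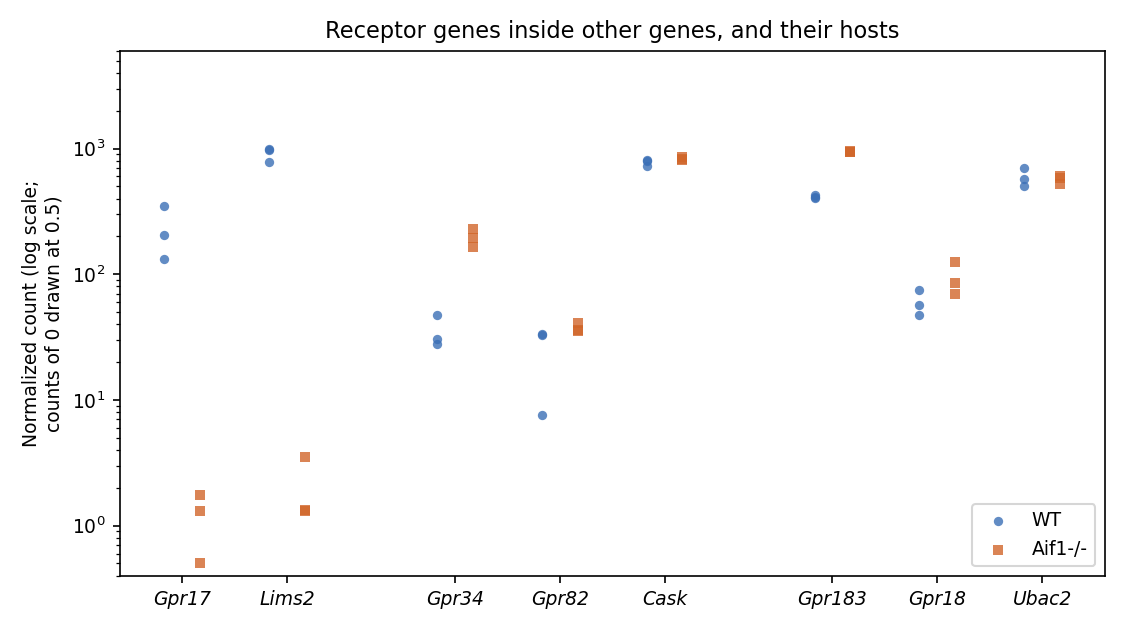
Normalized counts (vertical axis, log scale) of receptor genes that lie inside another gene and of those host genes *Lims2*, *Cask* and *Ubac2* (horizontal axis), with a point for each WT (circles) and Aif1-/- (squares) library. *Gpr17* and *Lims2* drop together, whereas *Gpr34* and *Gpr183* are higher in Aif1-/- libraries and their hosts stay near the WT level.

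The group of intracellular and atypical membrane proteins also carries Gpr symbols, and several of its members are placed in internal membranes. Of 8 tested, only *Gpr107* (chr2:31152316-31218775, plus strand), a Golgi protein, was called, with 2942, 2854 and 3215 normalized counts in WT and 2506, 2309 and 2427 in Aif1-/- BMMs (log2 fold change -0.31, standard error 0.07, adjusted p = 0.0112 by edgeR). The call was lost without Aif1-/- replicate 2 or 3 (adjusted p = 0.0989 and 0.0678 by edgeR). The log2 fold change of *Gpr137b* was -0.08 (standard error 0.06), that of *Gpr108*, the relative of *Gpr107*, was -0.12 (standard error 0.08), and that of *Gpr180* was 0.07 (standard error 0.11). *Gpr89*, which encodes a Golgi anion channel that sets luminal pH, had one of -0.21 (standard error 0.08, adjusted p = 0.108 by edgeR) and passed as lower without WT replicate 2.

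Adhesion receptors were few and those that changed fell. *Adgrg6* (chr10:14402583-14545659, minus strand), also called GPR126, binds basement membrane collagen and is needed for Schwann cells to myelinate. Its normalized counts were 1674, 1749 and 1370 in WT and 405, 390 and 429 in Aif1-/- BMMs. Every Aif1-/- library was below every WT library, and the log2 fold change was -1.97 (standard error 0.11, adjusted p = 6.58e-07 by edgeR), a 3.92-fold lower level. It held 5.4% to 7.3% of the counts of the 99 genes in WT and 1.7% to 1.8% in Aif1-/- BMMs. *Adgre5* (chr8:83723251-83741326, minus strand), also called CD97, a leukocyte receptor for CD55, had only 20, 33 and 36 raw counts in WT and 6, 4 and 10 in Aif1-/- BMMs (log2 fold change -1.75, standard error 0.45, adjusted p = 0.0215 by edgeR). The call was lost without Aif1-/- replicate 1 or 2 (adjusted p = 0.142 and 0.121 by edgeR), and 23.8% of its exon length overlaps exons of *Ddx39* on the other strand (log2 fold change 0.22, adjusted p = 0.145 by edgeR). *Adgrl2*, a latrophilin that binds teneurins, had 1799, 1797 and 1989 normalized counts in WT and 1962, 1829 and 1821 in Aif1-/- BMMs, which overlapped, with a log2 fold change of 0.01 (standard error 0.07). *Adgrl1*, its relative, had one of 0.13 (standard error 0.29) and *Adgra2*, a coreceptor of Wnt signalling, of -0.12 (standard error 0.20). Of the ADGRB, ADGRD, ADGRF and ADGRV subfamilies, 10 genes together, none had enough counts to test. *Adgre1* itself, left out by the rule, rose from 6586 ± 620 (SD, n = 3) to 8670 ± 334 (log2 fold change 0.40, adjusted p = 0.00546 by edgeR).

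The 15 called genes were split by gene structure. Many class A receptors are encoded in a single coding exon, and all 8 genes that rose belonged to the 17 tested members of that build, of which 1 fell. Of the 21 tested members with several coding exons none was called higher and 6 fell. *Gpr146* is among the 21 and lay just short of the threshold on the higher side (log2 fold change 0.34, adjusted p = 0.0565 by edgeR). Over all tested protein-coding genes 9.02% of 776 genes with a single coding exon were higher and 9.92% lower, against 10.2% and 14.0% of 11346 genes with several. This split was seen in the values and was not tested. Among the 17 genes WT replicate 2 was the highest WT library in 9 and replicate 3 the lowest in 9, whereas among the 21 genes replicate 3 was the highest in 12. These replicates had the largest and the smallest share of reads matched to no gene. With that share as a covariate the same 15 genes were called, together with *Gpr146* as higher and *Gpr89* as lower. That fit called more genes in general, 5517 of all 17406 tested against 3231 without the covariate. In that fit a gene with several coding exons was thus among those called higher.

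The upstream sequences of the called genes varied in base composition. Of the 15, 10 had a start in the RefSeq promoter table of GRCm38.p6. In the 250 bases before the start, the share of G and C among genes that rose was 34.8% in *Gpr141*, 32.0% in *Gpr183*, 36.8% in *Gpr65*, 46.0% in *Gpr84*, 55.2% and 54.4% at the 2 starts of *Gpr35*, and 62.4% in *Gpr160*. Among genes that fell it was 69.6% in *Adgrg6*, 63.2% in *Gpr107*, 67.2% in *Gpr157* and 64.0% in *Gpr176*. Much of some stretches is annotated exon: 250 of the 250 bases for *Adgrg6*, 226 for *Gpr107*, 174 for *Gpr84* and 138 for *Gpr157*. The share was not compared between the groups by a test. The median over all 32851 starts in the table was 52.4%, with quartiles of 45.2% and 61.2%. Shown here are the bases before the start, without annotated exon sequence, for the 3 genes with the largest rise and the gene with the largest fall among the called genes in the table whose stretch could be kept free of exons. Capitals mark matches on either strand to GAGGAA (a core of ETS factor sites such as those of PU.1), TGANTCA (AP-1), TTGCNNAA (C/EBP), GAAANNGAA (a core of interferon response elements) or CACGTG (E-box). These motifs are found in 23.3%, 6.75%, 9.56%, 7.13% and 6.02% of all the promoters of that length.
Gpr141, chr13:19824258-19824507, minus strand: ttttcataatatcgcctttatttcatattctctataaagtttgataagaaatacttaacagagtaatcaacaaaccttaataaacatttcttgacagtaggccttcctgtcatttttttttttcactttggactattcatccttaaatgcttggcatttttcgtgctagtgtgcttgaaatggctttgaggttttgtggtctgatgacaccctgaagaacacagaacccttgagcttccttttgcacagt
Gpr183, chr14:121965196-121965443, minus strand: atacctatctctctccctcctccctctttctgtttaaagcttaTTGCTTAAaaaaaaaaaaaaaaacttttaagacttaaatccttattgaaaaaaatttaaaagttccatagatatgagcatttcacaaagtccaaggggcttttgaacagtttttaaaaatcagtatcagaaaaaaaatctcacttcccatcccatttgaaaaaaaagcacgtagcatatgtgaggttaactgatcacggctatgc
Gpr35 first start, chr1:92972869-92973118, plus strand: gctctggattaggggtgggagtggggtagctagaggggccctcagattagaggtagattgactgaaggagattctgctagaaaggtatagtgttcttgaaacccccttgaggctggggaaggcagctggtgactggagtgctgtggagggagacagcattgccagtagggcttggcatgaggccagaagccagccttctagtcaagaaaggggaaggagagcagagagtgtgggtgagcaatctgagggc
Gpr35 second start, chr1:92978653-92978902, plus strand: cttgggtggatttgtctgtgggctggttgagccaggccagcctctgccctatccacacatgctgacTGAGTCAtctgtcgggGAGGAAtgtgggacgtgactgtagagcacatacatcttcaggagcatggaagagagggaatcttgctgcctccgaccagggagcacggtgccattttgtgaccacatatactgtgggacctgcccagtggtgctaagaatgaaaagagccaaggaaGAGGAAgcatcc
Gpr176, chr2:118373420-118373669, minus strand: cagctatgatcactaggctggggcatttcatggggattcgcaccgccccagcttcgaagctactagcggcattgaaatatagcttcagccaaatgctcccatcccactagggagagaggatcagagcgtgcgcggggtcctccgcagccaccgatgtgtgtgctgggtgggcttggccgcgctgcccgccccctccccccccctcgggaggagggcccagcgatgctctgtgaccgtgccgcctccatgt

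Those of *Gpr141* and *Gpr183* are rich in A and T and hold 2 CG steps each, and that of *Gpr176* holds 16. No motif was matched in *Gpr141* or *Gpr176* or before the first start of *Gpr35*. *Gpr183* has 1 match to TTGCNNAA, and the second start of *Gpr35* has 1 to TGANTCA and 2 to GAGGAA. A match is only a run of letters, and binding was not measured in these libraries.

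The signalling parts that receptors act through changed in both directions. Of 11 tested G alpha subunits, 1 was lower and none higher: *Gnas*, the stimulatory subunit that raises cAMP, went from 253 ± 52.8 (SD, n = 3) to 153 ± 5.50 normalized counts (log2 fold change -0.73, adjusted p = 0.0135 by edgeR). *Gna15*, *Gna12* and *Gna13*, the next smallest p, had log2 fold changes of 0.35, 0.39 and 0.20 and did not pass. Of 13 beta and gamma subunits, 3 were higher and 3 lower. *Gnb4* went from 292 ± 51.4 to 52.1 ± 3.82 and *Gng4* from 52.4 ± 16.2 to 10.0 ± 4.16, while *Gng12* went from 1159 ± 85.0 to 1900 ± 59.5 and *Gngt2* from 108 ± 11.6 to 212 ± 20.2.

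Of 7 tested arrestins and receptor kinases, which switch receptors off, 1 was higher and 2 lower. *Grk3* was detected in WT alone, with 23, 32 and 37 raw counts against 0 in each Aif1-/- library. Setting the Aif1-/- group to 3 counts in all, it was at least 24.1-fold lower. *Grk5* had a log2 fold change of -0.65 and the arrestin *Arrb2* of 0.31, and *Grk6* (0.21) did not pass. *Arrb1* had a higher level than *Arrb2* (WT means of 10701 against 5433 normalized counts) and did not pass (log2 fold change 0.04). Of 11 RGS proteins, which speed up the shut-off of G alpha subunits, 4 were higher and 1 lower. *Rgs11* (log2 fold change 3.11), *Rgs10* (0.63) and *Rgs1* (0.65) rose, and *Rgs16*, with 41 raw counts in WT and 0 in Aif1-/- BMMs, was at least 10.8-fold lower on the same basis. Of 8 chaperones and sorting proteins, 1 was higher and 3 lower, with *Ramp1*, a partner of the calcitonin-like receptor, at -1.82, *Rtp4* at -0.48, *Ric8a* at -0.33 and *Gpsm3* at 0.41.

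Of 8 tested ligands of adhesion receptors, 1 was higher and 4 lower. *Tgm2*, a transglutaminase that binds ADGRG1, went from 815 ± 63.3 to 2173 ± 54.6 (SD, n = 3 each), although *Adgrg1* was hardly detected. *Prnp*, the prion protein, which binds ADGRG6, went from 719 ± 30.6 to 457 ± 36.1. *Col4a2*, a chain of basement membrane collagen, went from 2207 ± 388 to 1542 ± 22.4. *Col4a1*, another chain of that collagen, had 1004 ± 64.1 against 987 ± 56.0 and did not pass (log2 fold change -0.03). *Rtn4r*, a receptor that binds ADGRB1, went from 221 ± 37.3 to 23.7 ± 4.12. Of 5 tested makers of ligands for Gpr-named receptors, *Ch25h* was higher and *Cyp27a1*, a sterol hydroxylase, lower (log2 fold change -3.20 at 33 or fewer raw counts), and *Psap*, the precursor of a ligand proposed for GPR37, and *Abhd16a*, a lipase that makes lysophosphatidylserine, did not pass (-0.29 and -0.21). The share called in these lists ran from 9.09% to 62.5% of the genes tested, against the 18.6% of all genes. The median log2 fold change was 0.20 for G alpha subunits, -0.03 for beta and gamma subunits, 0.08 for arrestins and kinases, 0.15 for RGS proteins, 0.00 for chaperones, -0.23 for ligands of adhesion receptors and -0.21 for makers of ligands, beside -0.00354 for all genes tested.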

How the data were processed

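Ribosomal RNA-depleted total RNA from 3 WT and 3 Aif1-/- BMM cultures was sequenced from one end. The authors trimmed reads (Trim Galore 0.5), aligned them (TopHat2 2.0.13, at most 1 location), counted them per Ensembl gene (HTSeq 0.6.1p1) and deposited raw counts without normalization. The kit is described as stranded and the counting as run under default parameters, and how far these separate the strands was not tested, so overlapping genes on opposite strands may share reads. Rows that name no gene (25.5% to 40.4% of reads matched to no gene, 4.55% to 7.15% ambiguous) were left out. Groups came from the sample labels.

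Counts were tested with edgeR 4.0.16 in R 4.3.3: filterByExpr, TMM normalization, the quasi-likelihood test with 1 term for genotype, and Benjamini-Hochberg adjustment over the 17406 genes kept, at a threshold of 0.05. Simulated data with known changes were used to check the scripts. Normalized counts are scaled to the mean library, and levels per kilobase use the union of exons. Positions are from GENCODE M21 (GRCm38) and promoters from RefSeq GRCm38.p6, with 72 of the 99 genes in the promoter table. An exact permutation test of 3 against 3 libraries cannot give p under 0.1, so none was used. Alternatives were DESeq2 1.42.0, other scaling and filters, a replicate block, an added covariate and leaving out each library. The gene set, the gene lists and the tests were chosen with earlier results of these data known. Named genes were the called members, the 12 highest members by level, and genes that share a locus with them. Some genes that were counted are not reported here by name. Other genes named were picked from the fixed lists or after their values were seen.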

Additional observations from a re-analysis of the deposited data

How the results depend on the processing

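For the 15 called receptor genes, fold changes kept their direction in each fit that tested them, and the call was kept 185 times and lost 20 times over the alternatives. Among genes named here that were not called, *Gpr89* passed 2 times. *Gpr146* passed as higher without a filter, with the stricter filter, with the added covariate, and without WT replicate 2 or 3. *Adgrl2*, near 0 at 0.01, turned negative without WT replicate 1 (-0.0171), WT replicate 2 (-0.0131) or Aif1-/- replicate 1 (-0.0237). It passed in none of the fits and ranged from -0.0237 to 0.0647 with 1 library left out. The 15 called receptor genes were the same with DESeq2, with DESeq2's size factors in edgeR, and with the replicate number as a block (15 called, 8 higher, 7 lower, and 2872 genes in all against 3231). Same-numbered libraries of the genotypes did not deviate together (r across genes of 0.0601, -0.0753 and -0.0858). With 3 libraries a genotype, these values cannot settle whether the numbers pair the cultures, and the labels do not state it. Without a filter 16 were called, and with at least 50 counts in 3 libraries 15, of which 14 were shared. Over all genes these fits called 3540 of 26934 and 3092 of 13580. Leaving out genes whose exons overlap a gene on the other strand removed 4 called genes from the test, among them *Adgre5*, *Gpr107* and *Gpr17*. It left 11 calls with 4 lower, beside 2462 calls among all 12919 genes tested. Tested against a log2 fold change of 1, 5 genes passed, 3 higher (*Gpr141*, *Gpr34*, *Gpr35*) and 2 lower (*Adgrg6*, *Gpr17*). Among all 17406 genes tested 599 did. Leaving out 1 library at a time gave 12 to 17 calls, 6 to 9 higher and 5 to 8 lower, and 18 to 35 calls in the signalling lists against 26. The number called over all genes moved too, from 2040 without Aif1-/- replicate 1 to 4889 without WT replicate 3, against 3231 with all libraries. The calls of *Gpr160*, *Gpr107* and *Adgre5* each depended on at least 1 library. Of the 38 genes tested, 29 passed the stricter filter and 25 of the 99 reached a level of 1 CPM per kilobase. With 3 cultures a genotype and a wider spread in WT (median SD of 14.2% of the mean, against 6.3% in Aif1-/- BMMs), small changes of low genes could not be resolved.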
